A study of Homo sapiens with 4 samples.

Results

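The levels of 5 structural RNA genes were described in HUH7, a human cell line established from a liver carcinoma: SNORD3B-1 and SNORD3C (U3 small nucleolar RNA), SCARNA9 and SCARNA22 (small Cajal body RNAs) and RNU4ATAC (minor spliceosome U4atac RNA). They were chosen as all table rows whose transcript identifier belongs to one of these genes in the GENCODE annotation, which gave 5 rows, 1 for each gene, of 19835 rows in all. RNA of 1 group of HUH7 cells, grown in medium with serum, was measured in 4 libraries, named replicates 1 to 4. There was no treated or control group, so levels were compared with a set level of 5 FPKM (fragments per kilobase of transcript and per 1000000 fragments), with each other and with related rows. Whether the libraries stem from separate cultures is not given in the labels, so p-values reflect the spread among 4 libraries that may be technical repeats. The titles carry the letters L (replicates 1 and 3) and H (replicates 2 and 4), described by the submitters as internal names, and they entered no test.

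These RNAs act in complexes with proteins and are not translated. U3 is a box C/D RNA of the nucleolus that pairs with the ribosomal RNA precursor and is needed for its cleavage on the way to the small ribosomal subunit. Small Cajal body RNAs guide the chemical modification of spliceosomal RNAs, box C/D members placing methyl groups and box H/ACA members placing pseudouridines. U4atac pairs with U6atac in the minor spliceosome, which removes a rare class of introns. U3 genes have their own promoters, whereas many small Cajal body RNAs are cut out of introns of other genes.

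The libraries held between 9806 and 10141 rows above 0 and between 5443 and 5738 rows above 5 FPKM. Estimated depth on the non-coding reference lay between 4500000 and 5060000 fragments. Of 7 liver-associated transcripts, 5 had a mean above 5 FPKM, and their summed level was 1472 to 1672 FPKM. The 5 transcripts of other cell types summed to 2.69 to 9.08 FPKM, with MIR155HG and PCGEM1 listed at 0 in all 4 libraries.

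The U3 genes differ in few bases, and their sequences are shown because they decide which reads can be told apart. All coordinates are on GRCh37. SNORD3B-1 (row ENST00000577988.1) lies at chr17:18965225-18965982 on the plus strand and SNORD3C (ENST00000580533.1) at chr17:19092978-19093558 on the minus strand, and neither overlaps another annotated gene. For SNORD3B-1 the coordinates and sequence are those of a later version of the row, so the deposited version may differ from them. The mature U3 RNA, 217 nt in RefSeq for each of these genes, is the start of each row and is called the U3 body here. Capitals mark positions 78 and 108, counted from 1 at the 5′ end, the only positions of the body where the 4 U3 rows differ.
SNORD3B-1 body: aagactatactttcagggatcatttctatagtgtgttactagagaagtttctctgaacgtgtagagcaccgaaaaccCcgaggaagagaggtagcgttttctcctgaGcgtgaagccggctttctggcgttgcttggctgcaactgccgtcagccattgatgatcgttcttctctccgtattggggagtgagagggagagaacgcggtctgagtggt
SNORD3C body: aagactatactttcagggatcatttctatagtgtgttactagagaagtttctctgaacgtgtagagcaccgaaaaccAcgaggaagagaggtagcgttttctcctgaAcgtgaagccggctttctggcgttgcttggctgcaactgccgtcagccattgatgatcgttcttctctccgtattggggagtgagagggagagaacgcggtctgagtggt
SNORD3A body: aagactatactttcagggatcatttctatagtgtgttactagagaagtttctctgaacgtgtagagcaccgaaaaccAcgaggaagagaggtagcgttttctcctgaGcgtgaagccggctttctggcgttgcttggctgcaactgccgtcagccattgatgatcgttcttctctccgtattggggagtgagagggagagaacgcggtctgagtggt

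The body of SNORD3B-1 was identical to that of SNORD3B-2, a second U3 gene 677 nt away on the opposite strand. The sequence of SNORD3B-2 is likewise that of a later version of its row. SNORD3A differed from SNORD3B-1 in the body by C78A alone, written with the base of SNORD3B-1 first. SNORD3C carried C78A and G108A, so that it differed from SNORD3A by G108A alone. SNORD3B-1 was 98.9% identical to SNORD3A over 702 aligned nt, 97.8% to SNORD3B-2 over 758 nt and 98.6% to SNORD3C over 583 nt. The next 79 nt after the body hold bases that set SNORD3B-1 apart from the other 3 rows, and capitals mark them at positions 267 and 274.
SNORD3B-1 flank: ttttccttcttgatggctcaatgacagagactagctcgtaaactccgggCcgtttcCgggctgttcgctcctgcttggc
SNORD3A flank: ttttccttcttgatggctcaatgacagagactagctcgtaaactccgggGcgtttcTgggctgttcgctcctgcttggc

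SNORD3B-2 and SNORD3C had the same 79 nt as SNORD3A, and the substitutions from SNORD3B-1 to each of them were C267G and C274T. Windows of 81 nt were counted along each row as a measure of what a short fragment can tell apart. In the body, 0 of 137 windows of SNORD3B-1 were found in no other U3 row, against 81 of 137 for SNORD3C, 51 of 137 for SNORD3A and 0 of 137 for SNORD3B-2. Past the body, SNORD3B-1 had 202 windows of its own, which start between positions 263 and 678. Each position from 222 to 501 of SNORD3B-1 had 5 genome matches of at least 50 nt at 80% identity or more, its own among them. Positions 509 to 758 had at least 100 matches, with up to 197667. The body, searched by itself, also had at least 100 at positions 3 to 68, with up to 128. In all, 1260 other rows of the table held a match of at least 50 nt to SNORD3B-1, and 4 held one to its body.

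**Figure D1:**
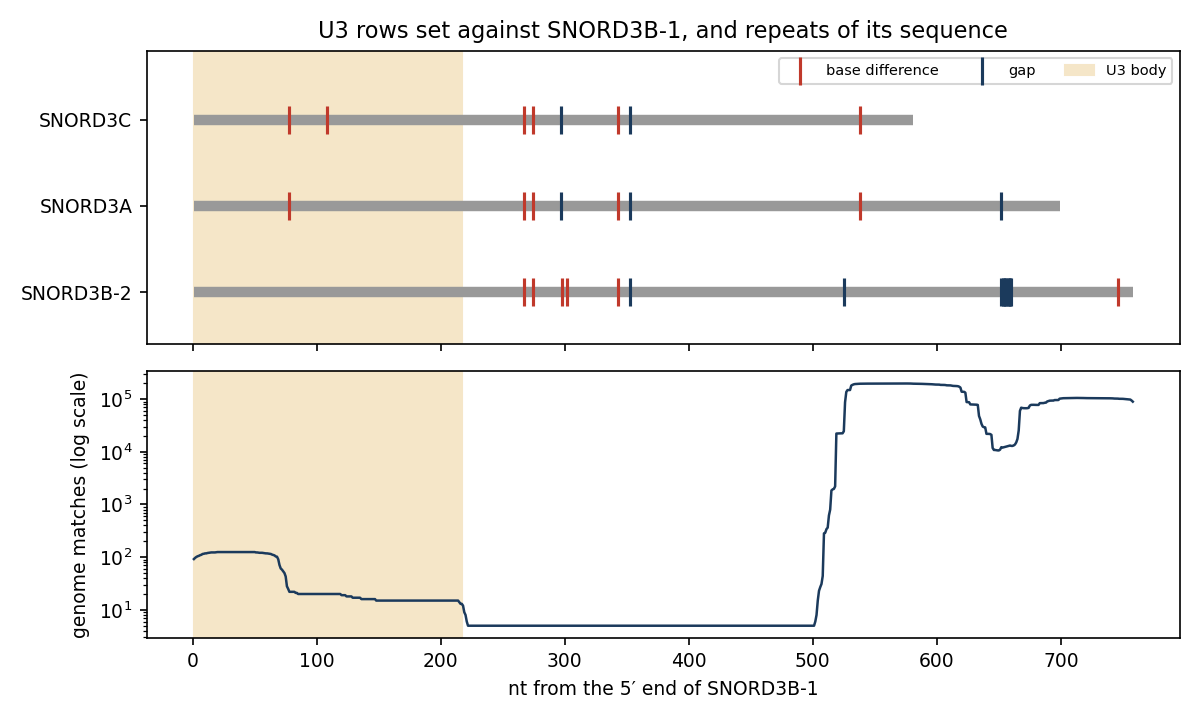
Base differences (red) and gaps (blue) of SNORD3C, SNORD3A and SNORD3B-2 against SNORD3B-1 by distance in nt from its 5′ end, above the number of genome matches at each position (log scale), with the U3 body of 217 nt shaded. The body holds 2 differences in SNORD3C, 1 in SNORD3A and 0 in SNORD3B-2, and matches climb to 197667 near the 3′ end.

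SNORD3B-1 was the highest of the 5 genes and spread widely between libraries. It had 1583, 3377, 4468 and 7361 FPKM in replicates 1 to 4, with a mean of 4197 ± 2422 FPKM (SD, n = 4). All 4 libraries lay apart from each other, and the highest value was 4.65 times the lowest. The row ranked between 7 and 37 of 19835 in its libraries. Values of the 2 libraries titled L (1583 and 4468 FPKM) and of the 2 titled H (3377 and 7361 FPKM) overlapped, and a difference by title was not tested. The annotation holds a later version of this row, so the length behind its FPKM is not known here.

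SNORD3C was listed at 0 in replicates 1, 2 and 4 and at 21.8 FPKM in replicate 3. A single library thus carried the whole listed signal of this row. For its annotated 581 nt the value stood for about 52 fragments, whereas 1 fragment stood for 0.394 to 0.444 FPKM. A count of 0 in the other libraries allows up to 1.18 to 1.33 FPKM, counting 3 fragments as the limit for counting error only. This limit takes all fragments of SNORD3C as assigned to its own row. Of its 501 windows of 81 nt, 81 were found in no other U3 row, so fragments assigned to another row are not covered. In the same library SNORD3A, the row 1 base away from SNORD3C over their shared 581 nt, had its lowest value.

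SNORD3A, which is described for comparison, had 902.4, 1016, 776 and 1101 FPKM, a mean of 949 ± 141 FPKM (SD, n = 4). SNORD3B-2 had 22.4, 57.6, 29.6 and 29.1 FPKM. Another U3 copy at chr17:19015210-19015949 on the minus strand lies in ENSG00000262202, and its row ENST00000573866.2 was listed at 0 in all 4 libraries. SNORD3B-1 was above SNORD3A in 4 of 4 libraries, by 1.75, 3.33, 5.76 and 6.69 times. The mean difference was 1.95 ± 0.88 on the log2(FPKM + 1) scale (SD, n = 4), with an exact two-sided sign-flip p of 0.125, the smallest that 4 libraries allow (adjusted p = 0.125 over 6 U3 pairs). SNORD3B-1 was listed at 58.6 to 253 times the FPKM of SNORD3B-2, although their bodies are identical. The lengths behind both values are not known, and how reads were divided between these rows cannot be seen.

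The sum of the 4 U3 rows was 2508, 4450, 5296 and 8491 FPKM. The coefficient of variation (CV, SD as a percentage of the mean) was 48.1% for the sum and 57.7% for SNORD3B-1 alone. SNORD3B-1 makes up most of the sum, so these values are not independent. SNORD3A had a CV of 14.8%. SNORD3B-1 made up 63.1%, 75.9%, 84.4% and 86.7% of the U3 sum in replicates 1 to 4, against 36.0%, 22.8%, 14.7% and 13.0% for SNORD3A. SNORD3C reached 0.412% in replicate 3. The U3 rows held 0.128% to 0.439% of all FPKM of a library.

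**Figure D2:**
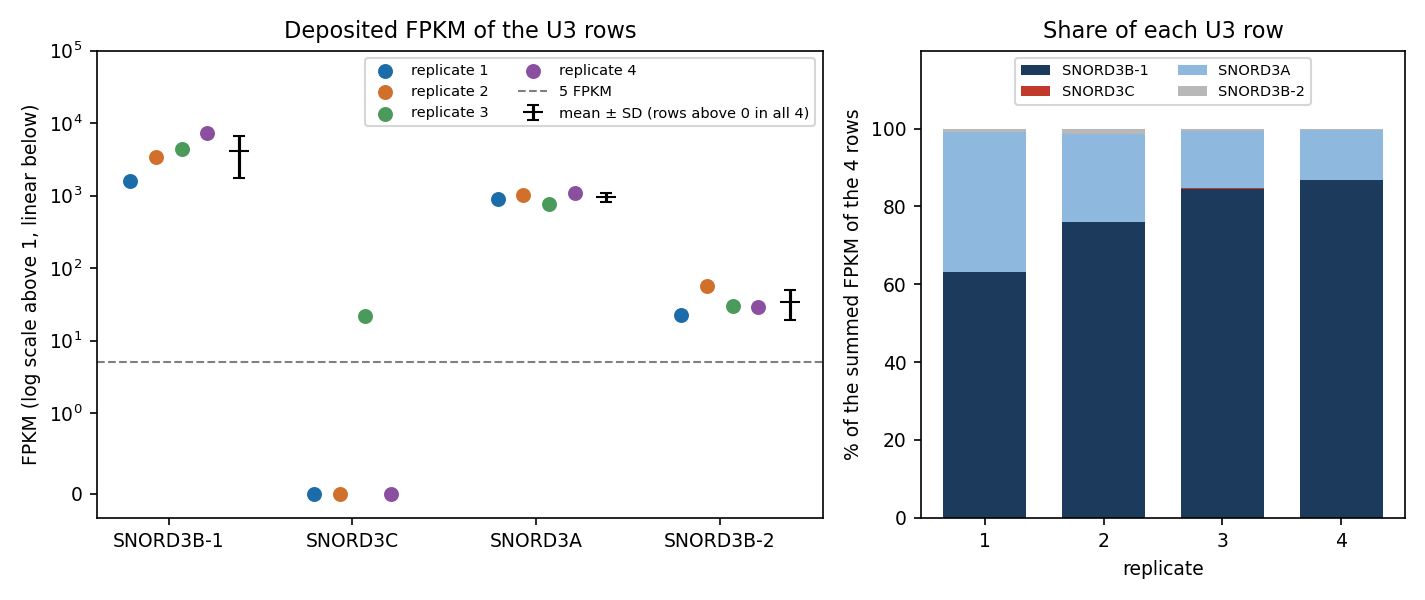
Left, deposited FPKM of the 4 U3 rows (log scale above 1, linear below), with a point for each library, mean ± SD where a row was above 0 in all 4, and a dashed line at 5 FPKM. Right, the percentage of the summed U3 FPKM held by each row, with SNORD3B-1 between 63.1% and 86.7% and SNORD3C visible in replicate 3 alone.

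Of the Cajal body RNAs, SCARNA9 is known as a member of the box C/D class and SCARNA22 of the box H/ACA class. SCARNA9 (ENST00000530422.1, 353 nt) lies at chr11:93454679-93455031 on the plus strand, inside CEP295 and between its exons. It is known to guide methylation of U2 spliceosomal RNA. The annotation classes it as lncRNA. Its 5′ and 3′ parts flank a GT repeat of 36 nt at positions 154 to 189. Capitals mark box C letters (TGATGA, 2 matches) and box D letters (CTGA, 6 matches).
SCARNA9 positions 1 to 153: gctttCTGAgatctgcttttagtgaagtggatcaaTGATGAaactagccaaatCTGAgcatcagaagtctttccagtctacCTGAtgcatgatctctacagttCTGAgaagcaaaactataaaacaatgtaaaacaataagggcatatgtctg
SCARNA9 positions 190 to 353: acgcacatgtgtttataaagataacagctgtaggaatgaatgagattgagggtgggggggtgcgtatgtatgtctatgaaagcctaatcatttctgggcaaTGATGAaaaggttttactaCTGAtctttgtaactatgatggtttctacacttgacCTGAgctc

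TGATGA was found on the sense strand in 12.2% and CTGA in 89.1% of 17077 table rows cut to the same length. On either strand the shares were 21.5% and 98.1%. In the U3 body, TGATGA was found once, at position 158, and CTGA 3 times, at positions 53, 104 and 209, where 7.51% and 74.2% of 18163 windows of that length held them on the sense strand. On either strand those shares were 13.5% and 91.6%. Matches are letters only and were not tested as sites.

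SCARNA22 (ENST00000503991.1, 125 nt) lies at chr4:1976363-1976487 on the plus strand, within NSD2 on the same strand. A single coding transcript of NSD2 has an exon over it. It is also known as ACA11. Capitals mark TGAG at position 50, letters of the Cajal body (CAB) box, and the ACA 3 nt from the 3′ end.
SCARNA22: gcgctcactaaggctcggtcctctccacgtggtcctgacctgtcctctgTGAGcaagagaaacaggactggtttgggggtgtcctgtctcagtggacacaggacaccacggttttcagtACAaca

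TGAG was present on the sense strand in 50.5% and ACA in 81.7% of 18358 windows of 125 nt, and on either strand in 73.9% and 95.9%. ACA occurs 6 times in SCARNA22, and H/ACA RNAs are known for an ACA near the 3′ end. The letters of box H (ANANNA) matched 5 times in SCARNA22, and 78.1% of the windows held them on the sense strand and 92.3% on either.

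SCARNA9 had the lowest CV of the 5 genes. Its values were 299 FPKM in replicate 1, 297 in replicate 2, 246 in replicate 3 and 326 in replicate 4, a mean of 292 ± 33.4 FPKM (SD, n = 4). The CV was 11.4% and the highest value 1.32 times the lowest. These values stood for about 367, 396, 317 and 450 fragments, so that counting error by itself gives a CV of 5.11%. It ranked between 270 and 431 of 19835 rows. Of other rows, 15 held a match of 50 nt or more, and the 5 highest of them matched between positions 143 and 201, which hold the GT repeat.

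SCARNA22 had 9.63, 13.5, 0 and 4.32 FPKM in replicates 1 to 4. The row was above 5 FPKM in replicates 1 and 2, below it in replicate 4 and listed at 0 in replicate 3. The 4 values stood for about 2, 3, 0 and 1 fragments, 6 in all. Counting error for that mean gives a CV of 82.4%, beside 86.2% observed. A count of 0 in replicate 3 allows up to 14.1 FPKM at this depth, above the values of the libraries where SCARNA22 was detected.

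RNU4ATAC (ENST00000580972.1, 127 nt) lies at chr2:122288457-122288583 on the plus strand. It lies within CLASP1 on the opposite strand and within the span of CLASP1-AS1 on the same strand, with no exon of either over it. Capitals mark ATTTTTG at positions 116 to 122, letters of the site where Sm proteins bind spliceosomal RNAs, which 1.22% of 18357 windows of 127 nt held on the sense strand and 2.38% on either.
RNU4ATAC: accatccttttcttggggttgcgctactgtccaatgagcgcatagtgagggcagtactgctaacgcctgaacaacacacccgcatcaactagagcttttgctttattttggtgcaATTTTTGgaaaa

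RNU4ATAC was listed at 0 in replicates 1, 2 and 4 and at 4.4 FPKM in replicate 3. A single fragment of this short RNA stood for 4.2 to 4.73 FPKM, and the value in replicate 3 for about 1 fragment. A count of 0 allows up to 12.6 to 14.2 FPKM. The row of CLASP1-AS1, ENST00000577914.1, had 3.68, 6.25, 7.18 and 2.64 FPKM in the 4 libraries.

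**Figure D3:**
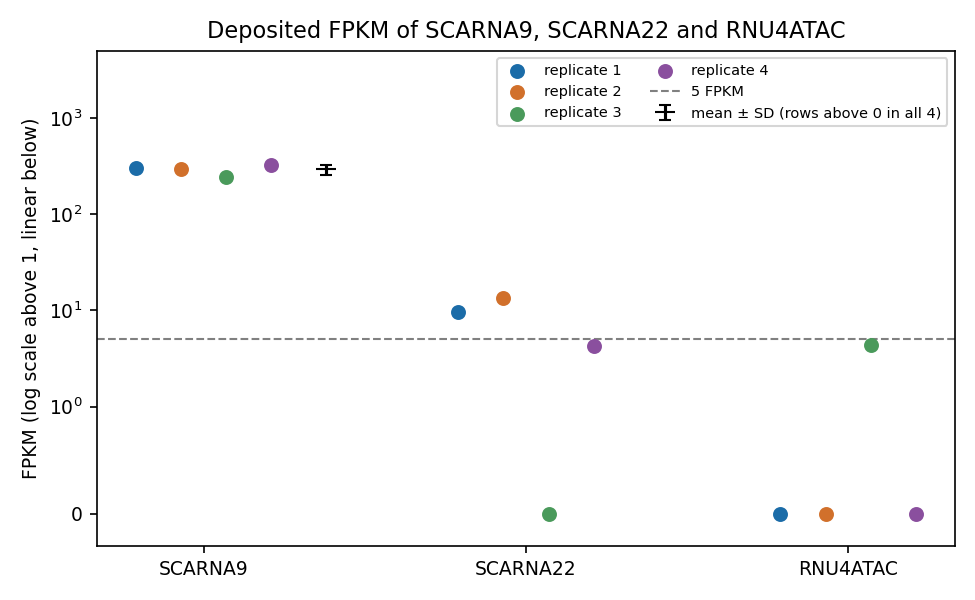
Deposited FPKM of SCARNA9, SCARNA22 and RNU4ATAC (log scale above 1, linear below), with a point for each library, mean ± SD where a row was above 0 in all 4 and a dashed line at 5 FPKM. SCARNA9 sits between 246 and 326 FPKM, SCARNA22 crosses the line, and RNU4ATAC lies above 0 in replicate 3 alone at 4.4 FPKM.

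Each row was compared with 5 FPKM, the level cutoff the study used in keeping transcripts. The study also set a minimum length, which SCARNA22 (125 nt) and RNU4ATAC (127 nt) do not reach. The one-sample moderated test of limma was used on log2(FPKM + 1), with Benjamini-Hochberg adjustment. It covered 11435 rows with a mean of at least 0.1 FPKM. All 5 rows entered the test. Of them, 2 were called above 5 FPKM, where 41.9% of all tested rows were, and 1 below it, where 43.3% were. SNORD3B-1 was above the level by 9.25 on the log2 scale (SE 0.28, adjusted p = 1.19e-09) and SCARNA9 by 5.60 (SE 0.084, adjusted p = 1.09e-11). RNU4ATAC was called below it, with a difference of -1.98 (SE 0.40, adjusted p = 0.00128), although a count of 0 allows more than 5 FPKM for this short RNA. SCARNA22 had a difference of -0.17 (SE 0.54, adjusted p = 0.782) and SNORD3C of -1.46 (SE 0.69, adjusted p = 0.0753), and neither passed. When the same test was run on genes, 2 of the 5 were above, where 50.6% of 8020 genes were, and 2 below, where 37.7% were. SNORD3C then passed as below (adjusted p = 0.0486 by limma). Its gene value is that of its 1 row, with the same difference of -1.46. The variance estimate (SE 0.63 against 0.69) and the adjustment changed, not the values of SNORD3C. Its 1 library above 0 had 21.8 FPKM.

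Levels were also compared in pairs of the 5 genes by the within-library difference of log2(FPKM + 1), with a two-sided exact permutation test by sign flips that cannot go below 0.125 with 4 libraries. The order was SNORD3B-1, SCARNA9, SCARNA22, SNORD3C and RNU4ATAC by mean level. SNORD3B-1 was above SCARNA9 by 3.64 ± 0.93 (SD, n = 4), and SCARNA9 above SCARNA22 by 5.77 ± 1.60, in 4 of 4 libraries each (exact p = 0.125, adjusted p = 0.179 over 10 pairs). In all, 7 of 10 pairs went in 1 direction in every library. The remaining 3 pairs, among the last 3 genes, did not go in 1 direction in every library. SCARNA22 was above SNORD3C in 3 of 4 libraries, by 1.29 ± 3.92 (exact p = 0.625, adjusted p = 0.694). It was above RNU4ATAC in 3 of 4 by 1.81 ± 2.89 (exact p = 0.375, adjusted p = 0.469). Without replicate 3, SCARNA22 was above both by 3.23 and 9 of 10 pairs went in 1 direction. SNORD3C and RNU4ATAC were both listed at 0 in replicates 1, 2 and 4, and the difference of 0.52 ± 1.04 rested on replicate 3 (exact p = 1).

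The spread of each row was set beside that of all rows with a mean within 2-fold of its own, as a description without a test. SNORD3B-1 had a CV of 57.7%, above that of all 18 rows of like level, whose median CV was 11.7%. At lengths of 217 nt or 758 nt counting error would give it a CV of 1.89% or 0.848%, from 976 to 5103 or from 4829 to 25255 estimated fragments. SCARNA9 was in the middle of its neighbours in level, with 284 of 601 rows as variable and a median CV of 11.1%. For SCARNA22, 92 of 2336 rows were as variable (median 30.0%), and 7 of the 62 that are at most 300 nt long (median 53.6%). SNORD3C and RNU4ATAC had a CV of 200%, the largest that 4 libraries allow, which 7 of 2335 and 89 of 2235 rows of like level reached. Of rows of like level to RNU4ATAC and at most 300 nt long, 16 of 76 reached it, with a median CV of 116%. Counting error for the mean of RNU4ATAC gives 202%. About 1 fragment in 1 library fixes this value and the observed 200% alike, so setting them side by side decides nothing.

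**Figure D4:**
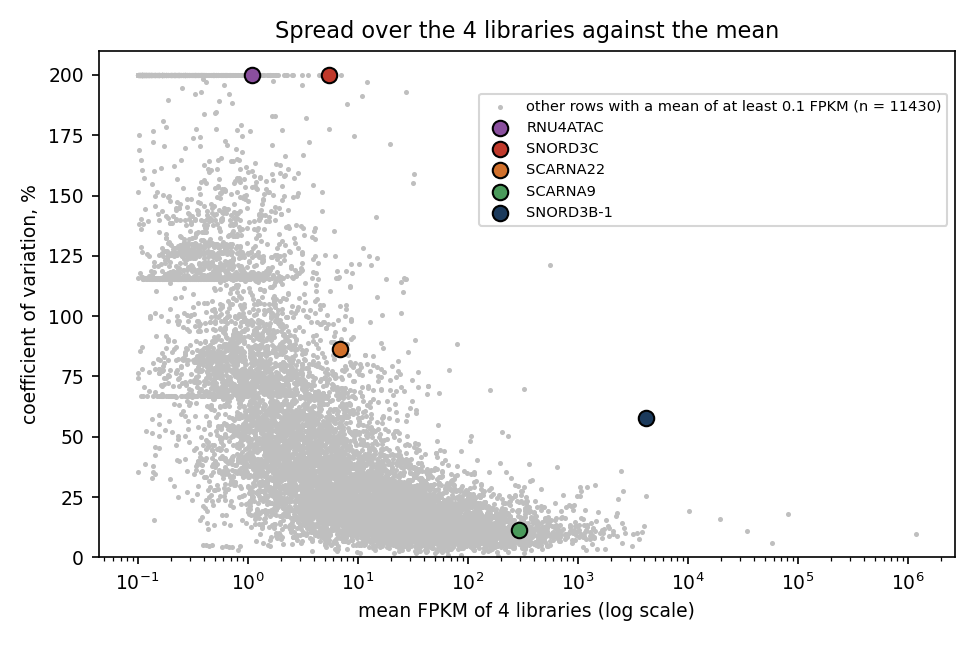
CV over the 4 libraries against the mean FPKM (log scale) for every row with a mean of at least 0.1 FPKM, with the 5 genes as large points. SNORD3B-1 lies at 57.7%, above the rows of like level, SCARNA9 at 11.4% among them, and SNORD3C and RNU4ATAC at 200%.

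Copies elsewhere in the genome, taken as matches over at least 80% of the length at 80% identity or more, set the genes apart. The U3 body had 14 other copies. Of these, 4 on chromosome 17 were 99.1% to 100% identical and each had a row, and 10 were 80.1% to 83.9% identical and had none. SCARNA9 had 1 copy, 93.7% identical over 98.9% of its length, on chromosome X at chrX:20154185-20154528 within EIF1AX on the minus strand, with no row. SCARNA22 had 0 copies. RNU4ATAC had 13, all annotated pseudogenes named RNU4ATAC with a number and P, at 81.9% to 90.4% identity and with no row. Among rows matched to the annotation, near-identical copies were therefore found for U3 alone. Rows without a match had no sequence or position to search. What reads from the other copies did was not tested.

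**Figure D5:**
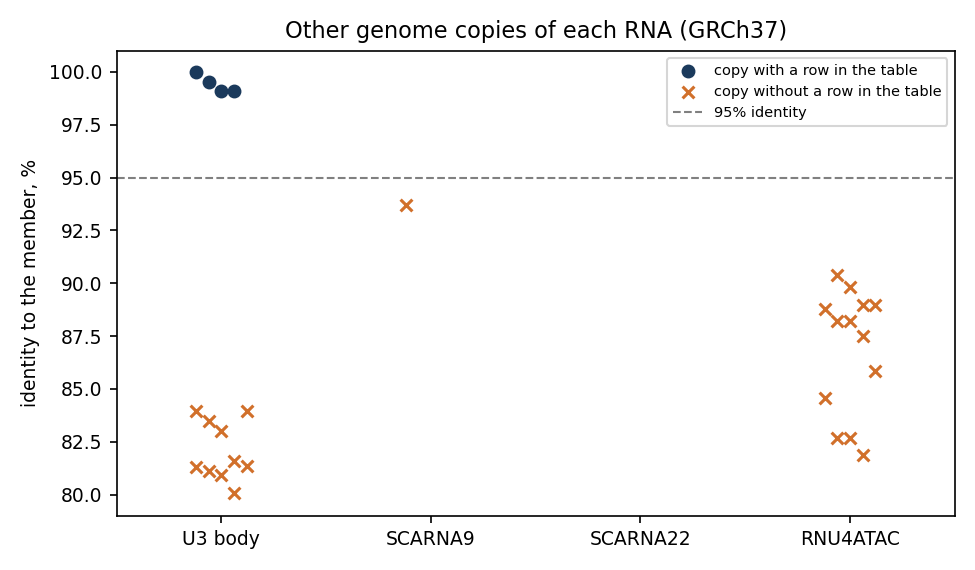
Identity to the member RNA (percent) of each other genome copy of the U3 body, SCARNA9, SCARNA22 and RNU4ATAC on GRCh37. Circles mark copies that have a row in the table, crosses those with none among the matched rows, and the dashed line 95%. U3 has 4 copies above the line, all with a row, and SCARNA22 has no copy.

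For each of the 4 genes with a mean of at least 5 FPKM, the rows of most like pattern over the 4 libraries were found among 5626 rows by the root mean square difference of centred log2(FPKM + 1). For SNORD3B-1 they were ENSG00000263551 (0.22), RP6-206I17.1 (0.28) and UBE2E3-DT (0.29), with 8.75, 5.24 and 5.26 FPKM on average. SCARNA9 was most like ENSG00000214719 (0.018), RAB3A (0.019) and RMST (0.020). For SCARNA22 they were LINC00987 (0.25), TUBA1B-AS1 (0.28) and PCBP1-AS1 (0.37). SNORD3C shared the value in replicate 3 alone with a KIZ row (0.045), which was listed at 0 in the other 3, and LINC01091 (1.12) and MIR4435-2HG (1.23) came next.

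Few other structural RNAs had a row. Of 81 symbols on the lists of U3, Cajal body, minor spliceosome, major spliceosome and other structural RNA genes, 59 were in the annotation and 7 had a row, with 4 of the U3 list, 2 of the Cajal body list, 1 of the minor spliceosome list and 0 of the others. By limma, 3 of the 4 U3 rows were above 5 FPKM, where 41.9% of all tested rows were. Beside SNORD3B-1 these were SNORD3A by 7.29 (adjusted p = 6.11e-12 by limma) and SNORD3B-2 by 2.48 (adjusted p = 1.52e-06 by limma). SNORA71B and SNORA59B, nucleolar RNAs of the H/ACA class, had 31.4 to 70.4 and 5.7 to 12.8 FPKM in the 4 libraries. KLHL22-IT1, included only because the annotation classes it as miscellaneous RNA, was listed at 0 in all 4 libraries.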

How the data were processed

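RNA of HUH7 cells was sequenced in 4 libraries made with a strand-specific Ribo-Zero kit after Qiagen extraction, although the labels name the molecule as polyA RNA. The authors deposited FPKM values with 2 decimals for 19835 non-coding transcripts, from reads aligned with Bowtie 1.01 and summarised with RSEM 1.2.3 on GRCh37 with an Ensembl non-coding annotation. Where reads match several transcripts, RSEM splits them by estimate. Protein-coding transcripts were left out of the reference.

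Identifiers were matched to GENCODE release 44 mapped to GRCh37, and 18373 of 19835 matched. The members and gene lists were chosen with earlier results of these data known. Rows with a mean of at least 0.1 FPKM were tested with limma 3.58.1 in R 4.3.3 on log2(FPKM + 1), two-sided, with a mean-variance trend and Benjamini-Hochberg adjustment at 0.05. The log2 scale understates differences of low rows. Gene values were sums of transcripts. The limma step was tested on simulated data. Copies were found with blastn 2.17.0. Fragments were estimated as FPKM × (length − 80 nt) × depth, where offset and depth were chosen so that most low values were whole. With these, 81.6% to 84.7% of such values were whole to within 0.05, where evenly spread values would give 10%. These depths are estimates, and depth multiples of them cannot be told apart. FPKM hold no counts, so no count test was run. Named rows were those of the 5 genes, other rows of small structural RNA classes or the gene lists, rows with exons over a member or sequence matched to it, and the 3 rows of most like pattern. Alternatives were another pseudocount, filter, threshold, scaling, variance model, gene value and leaving out each library.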

Additional observations from a re-analysis of the deposited data

Results flagged for a closer look

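SNORD3C was listed at 21.82 FPKM in replicate 3 and at 0 in the other 3 libraries, so that this library stood apart from the rest by the whole range of the 4 values. RNU4ATAC did the same, with 4.4 FPKM in replicate 3 and 0 in the others. A row listed at 0 in 3 of 4 libraries stands out in this way by construction, so no chance rate applies. The 2 rows differ in what lies behind the value, with about 52 estimated fragments for SNORD3C and 1 for RNU4ATAC. In the same library SCARNA9 and SNORD3A had their lowest values of 245.83 and 776.26 FPKM, and SCARNA22 was listed at 0. Whether these values are related was not tested.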

How the results depend on the processing

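SNORD3B-1 and SCARNA9 stayed above 5 FPKM under every pseudocount, filter, threshold, scaling, variance model and omission of a library that was tried. The count of rows below the level was 1849 with a mean of at least 1 FPKM and 1824 against a threshold of 1 FPKM, beside 4953. Of the 5 rows, 2 were below it with a pseudocount of 0.1, against 10 FPKM or with libraries brought to a common sum, where SNORD3C joined RNU4ATAC. The shares of all tested rows below were 42.8%, 55.5% and 51.2% in these settings. The common sum divided FPKM by 1.76 to 1.97 while the level stayed at 5, so it is in effect a higher threshold. Against 1 FPKM, 0 of the 5 were below, where 16% of all tested rows were, and RNU4ATAC no longer passed. SCARNA22 was then 1.42 above the level on the log2 scale (adjusted p = 0.0388 by limma). Among genes, 1 of the 5 was below when the highest transcript was used (38.5% of 8012 genes), as against 2 with sums (37.7% of 8020). With a library left out, 0 to 1 were below, beside 35.4% to 35.8% of all tested genes. The same omissions gave 0 to 1 among rows, beside 40.3% to 40.8% of all tested rows. Without replicate 3, SNORD3C and RNU4ATAC were 0 in all other libraries and were not tested. SCARNA22 then moved above the level, by 0.64 on the log2 scale (adjusted p = 0.0648 among rows and 0.0431 among genes by limma), with a lowest value of -0.64 when another library was left out. The mean of SCARNA9 was 155 with libraries brought to a common sum of 1000000, a change of unit. Its CV was 5.19% to 14% and that of SCARNA22 50.2% to 116% with 1 library left out, the lowest in both without replicate 3. Pairs of the 5 genes in 1 direction were 7 to 9 of 10, the highest without replicate 3. The CV of SNORD3B-1 was 40.6% to 72.0% in the same way, and summing the U3 rows, an alternative chosen after seeing the data, gave 48.1%. Causes were not tested. No paired analysis between groups was possible because there is 1 group.

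Precision is limited by depth for short RNAs, where 1 fragment is worth several FPKM, and by 4 libraries, with which the exact tests cannot pass 0.05. The lengths behind SNORD3B-1 and SNORD3B-2 are not known. How reads were divided between U3 rows cannot be seen in FPKM.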
